A study of Mus musculus with 8 samples.

Results

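The 10 circadian clock genes described here are Arntl, Clock, Per1, Per2, Per3, Cry1, Cry2, Nr1d1, Nr1d2 and Dbp. They were taken by gene name from a count table of 54532 genes, each matched 1 row, and all 10 passed the filter on low counts that left 18238 genes for testing. The libraries came from orthotopic pancreatic tumours of C57BL/6 mice, made by implanting cultured KPC cells, a line from a mouse model of pancreatic ductal adenocarcinoma. TLQP21 is a short peptide released by cleavage of VGF, a secreted neuropeptide precursor. 4 libraries (TLQP21 1 to 4) came from mice treated for 2 weeks with TLQP21, and 4 (Saline 1 to 4) from mice given saline for the same time. All 8 tumours share the implanted line, and the labels give neither the hour of collection, nor the age of the mice, nor whether the libraries are separate animals. P-values therefore measure only how much these libraries vary, and that variation may be technical in part. Sex-linked reads, given below, differ within each group, so the libraries of a group cannot all be from the same animal.

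The mammalian clock is a feedback loop of transcription and translation that runs in nearly every cell with a period of about a day. ARNTL (also called BMAL1) and CLOCK bind E-box sequences and activate the Per, Cry, Nr1d and Dbp genes. PER and CRY proteins then block ARNTL and CLOCK, while NR1D1 and NR1D2 (REV-ERB alpha and beta) repress Arntl. In synchronised tissue the transcripts of Arntl and of the Per, Nr1d and Dbp genes therefore peak at opposite times of day. Per1 is in addition induced directly by glucocorticoids and by cyclic AMP and stress signals, outside the loop.

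Promoter sequence is shown for 5 of the 6 members with a match to the elements of this loop, because these elements are the textbook route by which members would move together. RefSeq windows on GRCm38.p6, each of 300 bases from 250 before to 50 after a transcript start, were found for 9 of the 10 members (13 windows), with none for Per2. Both strands were searched for the E-box CACGTG, its variant CACGTT, the D-boxes TTATGTAA and TTACGTAA bound by DBP, and the element TAGGTCA bound by ROR and NR1D proteins. No searched motif contains another. CACGTG was in 2 member windows (7.15% of 32851 windows of all genes), CACGTT in 3 (4.68%), TTATGTAA in 1 (0.938%), TAGGTCA in 1 (2.61%) and TTACGTAA in none (0.119%). A match is a description of letters in this window and not a binding site. The start used for Per1 lies inside the counted gene, whose span begins at 69095217, so its stretch is not upstream of the whole gene. In the stretches below, written 5′ to 3′ on the gene's strand, capitals mark the matches.
Per1, + strand, chr11:69098733-69098852, E-box 166 bases before the start: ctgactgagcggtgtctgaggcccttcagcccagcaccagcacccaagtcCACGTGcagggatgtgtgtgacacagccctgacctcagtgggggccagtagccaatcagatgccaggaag
Cry1, - strand, chr10:85185065-85185184, E-box variant 79 and E-box 60 bases before the start: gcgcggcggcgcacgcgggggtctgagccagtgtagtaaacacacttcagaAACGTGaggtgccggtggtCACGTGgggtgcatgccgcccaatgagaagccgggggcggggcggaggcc
Nr1d1, - strand, chr11:98775388-98775507, E-box variant 28 bases before the start: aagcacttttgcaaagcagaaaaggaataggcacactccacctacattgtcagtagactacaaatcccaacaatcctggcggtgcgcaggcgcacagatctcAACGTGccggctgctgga
Per3, - strand, chr4:151044796-151044915, D-boxes 205 and 158 bases before the start: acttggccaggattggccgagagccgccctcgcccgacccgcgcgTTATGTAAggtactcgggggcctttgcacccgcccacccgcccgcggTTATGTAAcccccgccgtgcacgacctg
Arntl, + strand, chr7:113207529-113207558, ROR and NR1D element 31 bases after the start: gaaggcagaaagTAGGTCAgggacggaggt
The sixth, Cry2, had a single CACGTT match 166 bases before its start and is not printed, since Cry1 and Nr1d1 show the same variant.

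Library totals ran from 29027480 to 33536087 counts in TLQP21 and from 28358465 to 28963457 in Saline, so every TLQP21 library was deeper. Xist, which coats the inactive X, marked libraries 1 and 2 of each group (9960 to 10625 reads), and libraries 3 and 4 of each group had 0 to 14 Xist reads. Reads of 4 genes on the Y (Uty, Kdm5d, Ddx3y and Eif2s3y) summed to 2027 to 2247 reads in libraries 3 and 4 and to 1 to 20 in the others. The labels do not mention this split, and whether the 2 kinds of library were collected at the same hour is not given. Saline 2 carried liver transcripts: 6 hepatocyte genes took 0.399% of its counts, against 0.000562% to 0.000858% in TLQP21 and 0.000808% to 0.000870% in the other 3 Saline libraries. The epithelial markers Krt8, Krt18, Krt19, Epcam and Cdh1 were all present, at 0.516% to 0.560% of counts in TLQP21 and 0.453% to 0.513% in Saline. In whole tumours, fewer cells of a type and less RNA per cell cannot be told apart.

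All 10 members were well within detection, with 172 to 4123 reads per library. On a scale per gene length (TPM over all 8 libraries, mean ± SD, n = 8), the order of levels began with the repressor Nr1d2 at 43.4 ± 8.39 TPM, followed by Per1 at 34.5 ± 16.2, Per2 at 24.6 ± 3.69, Nr1d1 at 22.4 ± 2.72 and Clock at 20.8 ± 4.54. Cry1 at 12.7 ± 0.823 TPM, Dbp at 12.4 ± 4.32, Cry2 at 9.18 ± 0.944, Per3 at 7.62 ± 1.42 and Arntl at 6.34 ± 0.793 made up the lower part. Neighbours in this order overlapped in their library ranges except Clock (lowest library 16.2 TPM) and Cry1 (highest library 14.4 TPM). ARNTL and CLOCK work as a dimer, and the Arntl transcript was the lowest of the 10 while Clock stood in the middle.

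The question of the comparison was whether clock transcripts differed between TLQP21 and Saline tumours. None of the 10 clock genes passed the threshold (edgeR quasi-likelihood test, Benjamini-Hochberg adjusted p = 0.9999 for each), where 0% of all 18238 genes passed. 1 member, Per1, had an unadjusted p under 0.05, against 3.06% of all genes. The groups did not overlap for 0 members, against 1.66% of all genes. Of the members, 3 had log2 fold changes above 0 and 7 below, with a median of -0.11, beside a median of 0.00 and 50.6% above 0 over all genes tested. For 8 members, all but Per1 and Dbp, the 95% interval excluded a change of 1.5-fold either way, as it did for 55.1% of all genes.

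**Figure D1:**
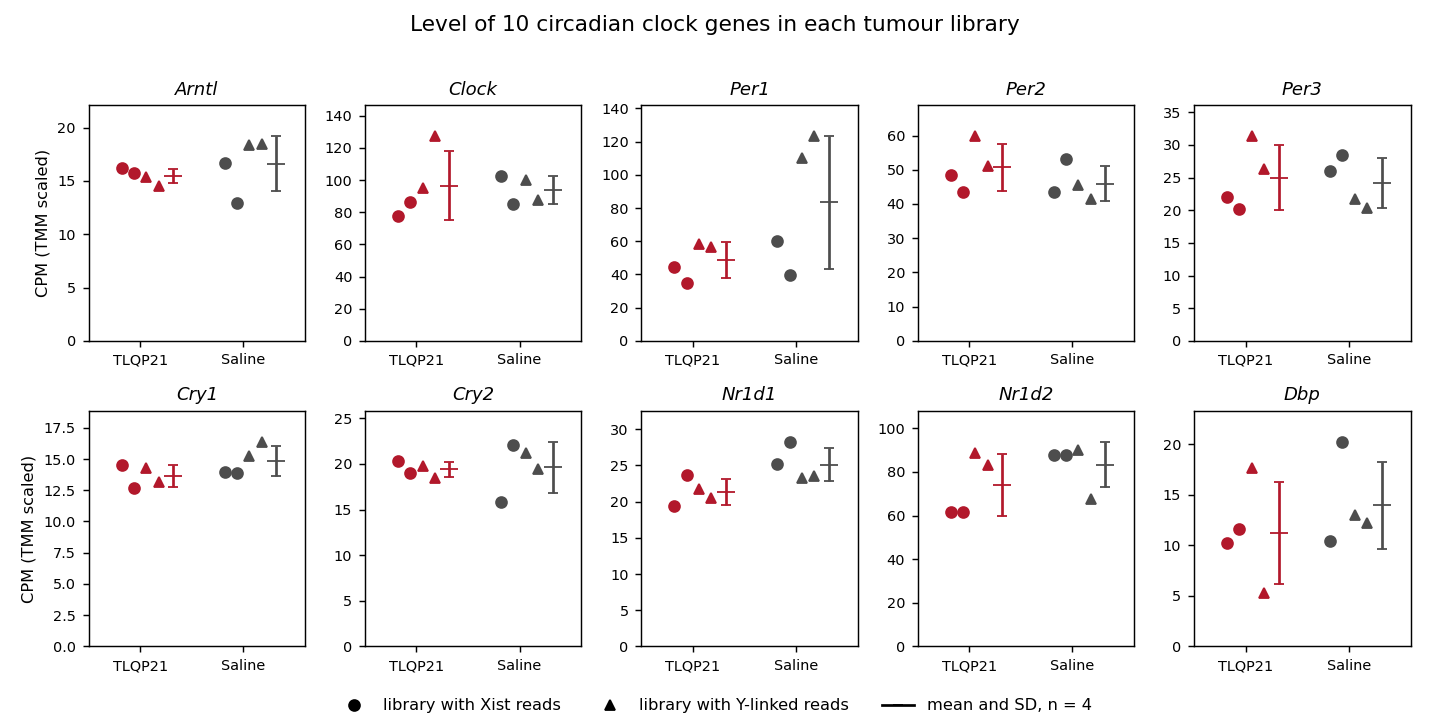
Level of each of the 10 clock genes (CPM, counts scaled by TMM to a common library total, linear axis from 0) in the 4 TLQP21 and the 4 Saline libraries; circles are libraries with Xist reads, triangles libraries with Y-linked reads, and bars the mean and SD. The groups overlap for every gene, and the ratio of highest to lowest library is largest for Per1 (34.9 to 123 CPM) and Dbp (5.31 to 20.2 CPM).

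For Arntl and Clock, the activators, the group means differed by less than the spread between libraries. Arntl (ENSMUSG00000055116, chromosome 7 from 113207465 to 113314126 on GRCm38) was at 16.2, 15.7, 15.4 and 14.5 CPM in TLQP21 1 to 4 and at 16.6, 13.0, 18.4 and 18.5 CPM in Saline 1 to 4. All TLQP21 values lay inside the Saline range, and the log2 fold change was -0.10 (SE 0.13, n = 4 per group; 95% interval -0.40 to 0.20). Clock (ENSMUSG00000029238, chromosome 5 from 76209868 to 76304792) was at 77.7, 86.1, 95.2 and 127 CPM in TLQP21 and at 103, 85.1, 99.8 and 87.3 CPM in Saline. TLQP21 4 stood above every other library, and the log2 fold change was 0.04 (SE 0.15; -0.29 to 0.38), turning to -0.12 without TLQP21 4 and to 0.00 without Saline 2.

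Per1 had the largest difference of the 10. Per1 (ENSMUSG00000020893, chromosome 11 from 69095217 to 69109960) was at 44.4, 34.9, 58.3 and 56.5 CPM in TLQP21 and at 60.3, 39.6, 110.3 and 123 CPM in Saline. Saline 3 and Saline 4 stood far above the rest. Saline 1 lay just above the highest TLQP21 library, and Saline 2 fell inside the TLQP21 range. The log2 fold change was -0.78 (SE 0.33; -1.51 to -0.05; unadjusted p = 0.0394, adjusted p = 0.9999, edgeR). It was -0.53 without Saline 4, -0.61 without Saline 3, -0.65 without TLQP21 2 and -0.74 without TLQP21 1, and in each of these 4 fits the unadjusted p of Per1 was above 0.05. It was -1.01 without Saline 2, -0.68 with the sex-linked split as covariate and -0.78 in DESeq2. In these 3 fits the unadjusted p was 0.00296, 0.00446 and 0.0121, with adjusted p above 0.99 in each. With a replicate block in edgeR it was -0.67 (unadjusted p = 0.00554, adjusted p = 0.998). In limma voom with quality weights it was -0.61 (unadjusted p = 0.0638, adjusted p = 0.495). Among Xist libraries alone the log2 ratio of the group means was -0.33, and among Y-linked ones -1.02.

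Per2 and Per3, the other period genes, had log2 fold changes above 0. Per2 (ENSMUSG00000055866, chromosome 1 from 91415982 to 91459324) was at 48.5, 43.4, 59.8 and 51.0 CPM in TLQP21 and at 43.4, 53.2, 45.6 and 41.4 CPM in Saline, a log2 fold change of 0.14 (SE 0.12; -0.13 to 0.41). Per3 (ENSMUSG00000028957, chromosome 4 from 151003652 to 151044665) was at 22.1, 20.2, 31.3 and 26.3 CPM in TLQP21 and at 26.1, 28.5, 21.7 and 20.4 CPM in Saline, a log2 fold change of 0.05 (SE 0.16; -0.32 to 0.41). Its direction turned without TLQP21 3 (-0.08) and without Saline 4 (-0.03), and was 0.00 without Saline 3. For both genes TLQP21 3 was the highest library.

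Cry1 and Cry2, the cryptochrome repressors, had the smallest ratios of highest to lowest library. Cry1 (ENSMUSG00000020038, chromosome 10 from 85131700 to 85185064) was at 14.5, 12.7, 14.2 and 13.2 CPM in TLQP21 and at 14.0, 13.9, 15.3 and 16.4 CPM in Saline, a log2 fold change of -0.12 (SE 0.12; -0.38 to 0.13). Cry2 (ENSMUSG00000068742, chromosome 2 from 92403646 to 92434043) was at 20.4, 19.1, 19.7 and 18.5 CPM in TLQP21 and at 15.8, 22.1, 21.2 and 19.4 CPM in Saline. The Saline libraries were spread on either side of the TLQP21 ones, and the log2 fold change was -0.02 (SE 0.12; -0.29 to 0.26).

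Nr1d1, the REV-ERB alpha repressor of Arntl, came nearest to separated groups. Nr1d1 (ENSMUSG00000020889, chromosome 11 from 98767932 to 98775333) was at 19.4, 23.7, 21.7 and 20.5 CPM in TLQP21 and at 25.2, 28.3, 23.3 and 23.6 CPM in Saline. Only TLQP21 2 reached the Saline range, and the log2 fold change was -0.24 (SE 0.11; -0.48 to 0.01; unadjusted p = 0.0575, adjusted p = 0.9999, edgeR). Its last 1075 bases overlap Thra, a thyroid hormone receptor gene on the opposite strand with 12322 reads against 5554 for Nr1d1, and reads there cannot be assigned without strand. Nr1d2 (ENSMUSG00000021775, chromosome 14 from 18204054 to 18239127), which encodes REV-ERB beta, was at 61.8, 61.8, 88.6 and 83.4 CPM in TLQP21 and at 87.7, 87.9, 90.0 and 67.7 CPM in Saline. TLQP21 1 and 2 lay lowest and Saline 4 next, and the log2 fold change was -0.17 (SE 0.15; -0.50 to 0.15).

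Dbp, a D-box activator and a direct output of the loop, had the largest fold range between libraries. Dbp (ENSMUSG00000059824, chromosome 7 from 45705088 to 45710203) was at 10.3, 11.7, 17.6 and 5.31 CPM in TLQP21 and at 10.4, 20.2, 13.0 and 12.2 CPM in Saline. The highest library was Saline 2, which carried the liver transcripts, and the lowest was TLQP21 4. The log2 fold change was -0.32 (SE 0.33; -1.06 to 0.43), and it was -0.08 without Saline 2, -0.09 without TLQP21 4 and -0.62 without TLQP21 3; the part of the liver transcripts was not tested. The last 737 bases of Dbp overlap Sphk2, a sphingosine kinase gene on the opposite strand (7281 reads against 2991 for Dbp). Per3 lies inside the span of Camta1 on the same strand (41014 shared bases). Cry2 shares 23417 bases with D930015M05Rik (182 reads) and Arntl 2394 bases with Gm45355 (5 reads), both on the opposite strand.

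**Figure D2:**
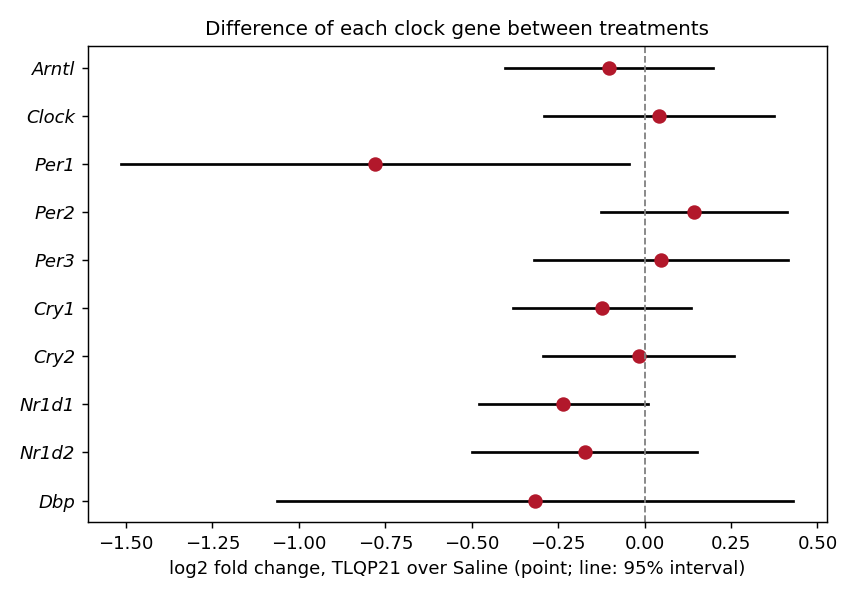
Log2 fold change of each clock gene, TLQP21 over Saline (points), with its 95% interval from the edgeR fit (lines) and 0 as a dashed line. Per1, at -0.78, is the gene farthest from 0, the interval of Nr1d1 ends at 0.01, and those of Per1 and Dbp are the widest.

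The spread of the members between libraries was small for most of them. The median biological coefficient of variation of the 10 genes was 0.162, beside 0.204 over all genes tested. Per1 (0.325, at percentile 81.3 of all genes) and Dbp (0.346, percentile 84.5) varied most. The other 8 members lay between 0.142 and 0.187, at percentiles 24.0 to 44.5. The ratio of the highest to the lowest library was 3.53 for Per1 and 3.81 for Dbp, and between 1.29 and 1.64 for the other 8 members.

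Whether the libraries shared a clock phase was examined first through the relation of Arntl to the other 9 members. Over the 8 libraries none of these 9 relations passed the threshold after Benjamini-Hochberg adjustment (Pearson's r on log2 CPM, exact two-sided permutation tests). Arntl ran against Per2 (r = -0.65, exact p = 0.0883, adjusted p = 0.199; Spearman's rho = -0.76, exact p = 0.0368, adjusted p = 0.138) and against Per3 (r = -0.64, exact p = 0.0885, adjusted p = 0.199; rho = -0.67, exact p = 0.0831, adjusted p = 0.187). It ran with Per1 (r = 0.77, exact p = 0.0205, adjusted p = 0.184; rho = 0.74, exact p = 0.0458, adjusted p = 0.138) and with Cry1 (r = 0.67, exact p = 0.0645, adjusted p = 0.199; rho = 0.74, exact p = 0.0458, adjusted p = 0.138). Without Saline 2 and Saline 4, the libraries farthest from the median of Arntl, r was -0.48 for Per2, -0.43 for Per3, 0.65 for Per1 and 0.73 for Cry1. Centred within each treatment, r was -0.61, -0.65, 0.77 and 0.64 in that order of genes, and centred within the 2 kinds of library it was -0.78, -0.72, 0.79 and 0.60; each kind alone holds too few libraries for its own value.

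The remaining relations of Arntl were weak, and some turned. For the direct targets Nr1d1, Nr1d2 and Dbp r was -0.24 (exact p = 0.570, adjusted p = 0.791; rho = -0.05), -0.22 (exact p = 0.615, adjusted p = 0.791; rho = -0.07) and -0.13 (exact p = 0.792, adjusted p = 0.850; rho = -0.12). Without Saline 2, the library with the liver transcripts, r was 0.50 for Nr1d1 and 0.44 for Dbp. Centred within treatments, r was -0.69 for Nr1d1, -0.38 for Nr1d2 and -0.26 for Dbp. For Cry2 r was -0.22 (exact p = 0.616, adjusted p = 0.791; rho = -0.14), and for Clock -0.06 (exact p = 0.850, adjusted p = 0.850; rho = 0.10). Dbp, whose transcript runs nearly opposite to Arntl in cycling tissue, had an r here that changed sign with 1 library.

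Among all 45 pairs of members, described without a test, the highest correlations were those of Per1 with Cry1 (r = 0.84), Per2 with Per3 (0.84), Per1 with Arntl (0.77) and Per3 with Nr1d2 (0.72). The lowest were those of Arntl with Per2 (-0.65), Arntl with Per3 (-0.64) and Clock with Dbp (-0.63). Per1 ran slightly against its paralogs Per2 (-0.35) and Per3 (-0.28). The 8 points of each pair share their libraries and scaling factors.

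**Figure D3:**
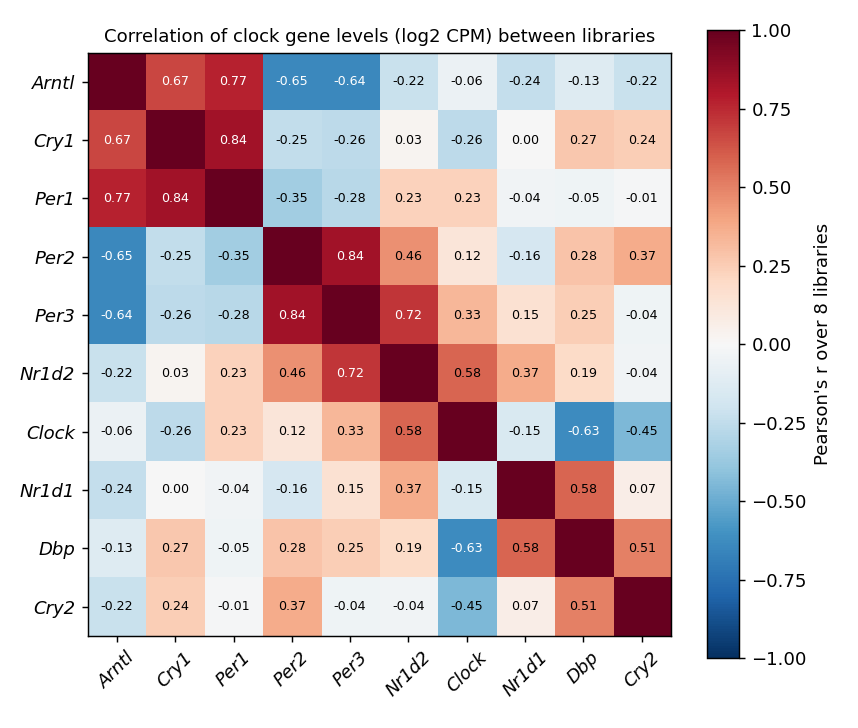
Pearson's r between the log2 CPM of each pair of clock genes over the 8 libraries, from -1 (blue) to 1 (red). Arntl, Cry1 and Per1 form a block of positive values (0.67 to 0.84), Per2, Per3 and Nr1d2 form another (0.46 to 0.84), and Arntl is negative to Per2 and Per3.

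Per2, Per3 and Nr1d2 were arranged by library in a way that crossed the treatments. For Per3, TLQP21 1 and 2 (22.1 and 20.2 CPM) lay below Saline 1 and 2 (26.1 and 28.5 CPM), whereas TLQP21 3 and 4 (31.3 and 26.3 CPM) lay above Saline 3 and 4 (21.7 and 20.4 CPM). The log2 ratio of TLQP21 over Saline was thus -0.37 among Xist libraries and 0.45 among Y-linked ones. For Nr1d2 the same ratios were -0.51 and 0.12, and for Per2 -0.07 and 0.35. A term for the difference of the treatment effect between the 2 kinds was 0.82 (SE 0.21) for Per3, 0.63 (SE 0.20) for Nr1d2 and -0.69 (SE 0.29) for Per1 on the log2 scale, each with an unadjusted p under 0.05. These 3 of 10 members stand beside 4.80% of all genes with an unadjusted p under 0.05 for this term. After adjustment over 18238 genes none of the members and 0% of all genes passed, with adjusted p = 0.842 for each of the 3 in edgeR. The split follows the replicate numbers and was read from the libraries themselves, so a shared hour or day of collection and sex cannot be told apart.

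The difference between the limbs of the loop in each library, given without a test, did not separate the treatments. Each gene's log2 CPM was set relative to its mean over the 8 libraries, and the mean of Per1, Per2, Per3, Nr1d1, Nr1d2 and Dbp was subtracted from the mean of Arntl, Clock, Cry1 and Npas2, a paralog of Clock. Cry1 encodes a repressor and was placed with the activators for the late timing of its transcript, which peaks nearer to Arntl than the other E-box targets do. The result was 0.25, 0.24, -0.37 and 0.34 in TLQP21 1 to 4 and 0.10, -0.35, -0.44 and 0.24 in Saline 1 to 4. TLQP21 3, Saline 2 and Saline 3 were the libraries below 0. Npas2 had only 8 to 47 reads, and lay 1.47 under its mean on the log2 scale in Saline 3 and 0.96 over it in Saline 4. Without Npas2, an alternative chosen after the values were seen, the result was 0.15, 0.14, -0.23 and 0.25 in TLQP21 and 0.040, -0.33, -0.038 and 0.025 in Saline, so the values of Saline 3 and Saline 4 rested largely on this gene. For Arntl minus Per3 alone, the values were 0.16, 0.25, -0.42 and -0.25 in TLQP21 and -0.04, -0.53, 0.37 and 0.46 in Saline. The sign of the second measure differed from that of the first in TLQP21 4, Saline 1 and Saline 3.

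Per1 was also set beside glucocorticoid-responsive and immediate-early genes. Tsc22d3 (also called GILZ), a glucocorticoid-induced leucine zipper gene, was at 53.2, 43.2, 56.5 and 62.6 CPM in TLQP21 and at 65.4, 40.3, 87.1 and 99.8 CPM in Saline, so that Saline 3 and Saline 4 were highest for it as for Per1. Its correlation with Per1 was r = 0.97 (exact two-sided permutation p = 0.000446, adjusted p = 0.00804 over 18 relations; rho = 0.95, exact p = 0.00114, adjusted p = 0.0205). Among 13717 protein-coding genes it ranked 2 by r to Per1, where 3.95% of these genes had r above 0.7. Without Saline 3 and Saline 4 r was 0.91, centred within treatments 0.97 and centred within the 2 kinds of library 0.95, with adjusted p = 0.0521 for each centred value by exact permutation within treatments or kinds. This family of 18 relations, with 10 glucocorticoid-response and 8 immediate-early genes, was chosen after the values of Per1 were seen.

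Of the 18 genes, all had r above 0 with Per1, as did 55.3% of the 13717 protein-coding genes. An unadjusted exact permutation p under 0.05 was found for 8 of the 18, against 768 of the 13717. With adjustment over the 18 relations 4 passed (Tsc22d3, Mt2, Dusp1 and Nr4a1), and with adjustment over all 13717 genes 0 passed. Mt2, with 14 to 50 reads per library and a mean of 0.981 CPM, is limited by depth. Its mean lay under the floor of 1 CPM for the 13717 genes, so it was not among them. After centring within treatments or within kinds 0 of 18 passed. Dusp1, a stress-induced phosphatase gene, and Nr4a1, an immediate-early nuclear receptor gene, fell into separate clusters by kind of library, so no pooled r is given for them. Nr4a1 was at 24.4, 19.6, 75.0 and 83.7 CPM in TLQP21 and at 23.1, 22.6, 98.7 and 112.7 CPM in Saline. The mean log2 level of the immediate-early list, relative to its mean over libraries, was -0.63, -0.76, 0.37 and 0.81 in TLQP21 and -0.51, -0.58, 0.43 and 0.85 in Saline, so libraries 3 and 4 of each group were high in both treatments. Per1 itself averaged 87.1 ± 34.7 CPM in the libraries with Y-linked transcripts and 44.8 ± 11.1 in those with Xist (SD, n = 4 each), a log2 difference of 0.88 in a fit with treatment (SE 0.18, unadjusted p = 0.00091, adjusted p = 0.0988, edgeR). None of the 10 members passed for this difference, where 0.373% of all genes did; Per1 was the 1 member with an unadjusted p under 0.05, against 13.6% of all genes. The part of these signals in the Per1 values was not tested.

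**Figure D4:**
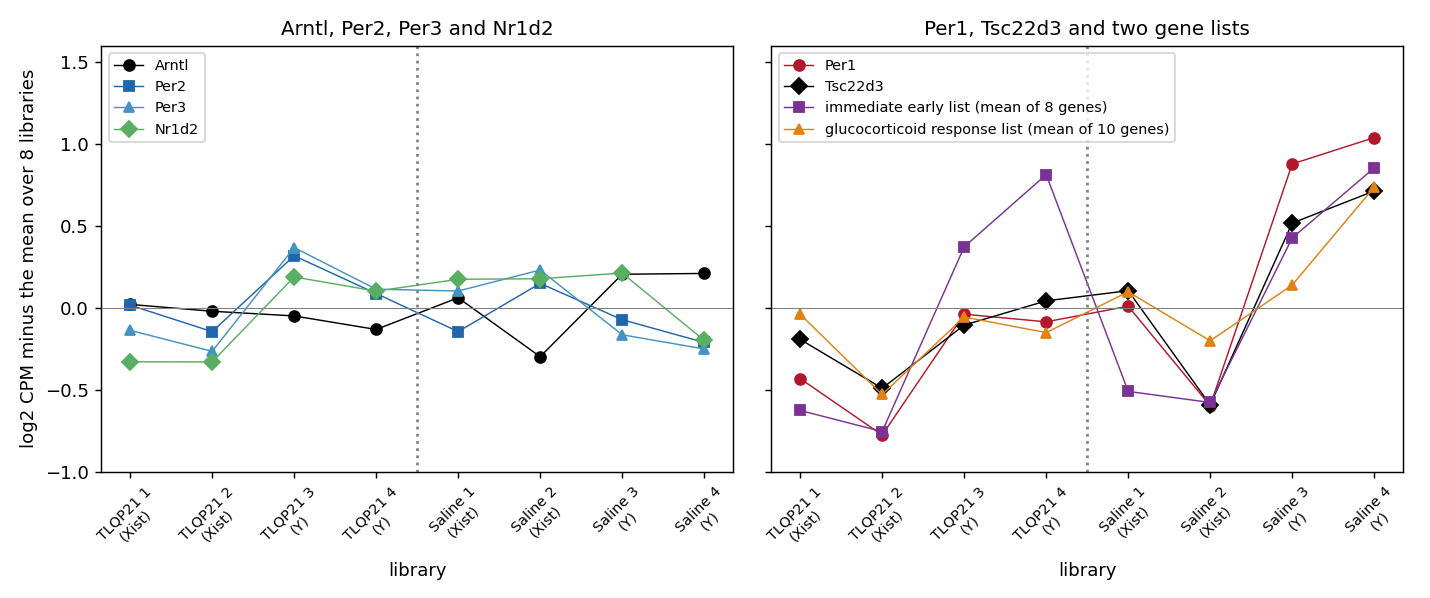
Log2 CPM relative to the mean over the 8 libraries (vertical axis) in each library (horizontal axis; TLQP21 left and Saline right of the dotted line, with the kind of sex-linked transcript in brackets); lines only join points of 1 gene or list. Left, Per2, Per3 and Nr1d2 are high in TLQP21 3 and low in TLQP21 2, while Arntl is lowest in Saline 2; right, Per1 and Tsc22d3 are highest in Saline 4 and Saline 3, and the immediate-early list is high in libraries 3 and 4 of each group.

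The glucocorticoid-response list had no gene past the adjusted threshold between treatments. All 10 of its genes had log2 fold changes below 0 in TLQP21 over Saline, as did 9017 of all 18238 genes tested. The median of the list was -0.31, beside 0.00 over all genes. Of its genes 2 had an unadjusted p under 0.05, against 3.06% of all genes. Among all 558 genes with such a p, 413 were lower in TLQP21. With 1 library left out, 7 to 10 of the 10 lay below 0, and without Saline 4 it was 7, with a median of -0.18. Saline 4, the highest library of this list, also had the highest shares of several cell markers. Acinar genes took 3.58% of its counts, against 0.769% to 2.17% in TLQP21, neutrophil genes 0.0699%, against 0.0153% to 0.0306% in TLQP21, and fibroblast genes 0.614%, against 0.320% to 0.467% in TLQP21. Neutrophil genes lay below 0 in TLQP21 over Saline for 5 of 5 and acinar genes for 6 of 6. Fibroblast genes did so for 3 of 5 and macrophage genes for 5 of 6. The share of macrophage genes overlapped between groups, at 0.101% to 0.156% of counts in TLQP21 and 0.130% to 0.139% in Saline. B cell, erythroid and islet genes lay below 0 for 4 of 4 each, and hepatocyte genes for 5 of 5 tested. T cell genes did so for 2 of 5, endothelial genes for 1 of 4 and epithelial genes for 0 of 5. The part of these cells in the list's values, and in those of Per1, was not tested. For Klf9 and Ddit4, the 2 genes of the list with an unadjusted p under 0.05, the groups did not overlap. The same held in this direction for 0.844% of all genes. Klf9, a Kruppel-like factor induced by glucocorticoids that is also under clock control, was at 65.8, 62.6, 66.9 and 61.7 CPM in TLQP21 and at 84.1, 69.9, 84.3 and 81.3 CPM in Saline (log2 fold change -0.31, SE 0.08; unadjusted p = 0.00405, adjusted p = 0.9999, edgeR). Ddit4, an inhibitor of mTORC1 induced by stress and glucocorticoids, was at 225, 188, 216 and 115 CPM in TLQP21 and at 280.1, 241, 226 and 364 CPM in Saline (-0.58, SE 0.22). Of the 8 immediate-early genes 3 lay above 0 and 5 below (median -0.12), and 0 had an unadjusted p under 0.05.

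A further 26 genes of the clock network, among them ROR activators, PAR bZIP factors, E-box repressors, kinases, ubiquitin ligases and outputs, were examined beside the 10 members. Of these 25 were tested, 0 passed the adjusted threshold and 1 had an unadjusted p under 0.05, against 3.06% of all genes. There were 12 log2 fold changes above 0 and 13 below (median -0.02). The activator Rorb was too low to be tested. Nampt, the rate-limiting enzyme of NAD salvage and a clock output, was at 139, 112, 115 and 143 CPM in TLQP21 and at 191, 193, 135 and 142 CPM in Saline (log2 fold change -0.38, SE 0.15; unadjusted p = 0.0273, adjusted p = 0.9999, edgeR). Saline 1 and Saline 2 stood above all others, and the remaining libraries overlapped.

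Other network genes among those with the smallest p were described by their levels. Hlf, a D-box activator, averaged 0.525 ± 0.190 CPM in TLQP21 and 0.947 ± 0.726 CPM in Saline, where Saline 2, the library with liver transcripts, alone had 2.03 CPM. Nfil3, the D-box repressor that opposes DBP, averaged 29.1 ± 7.54 CPM in TLQP21 and 39.1 ± 15.2 CPM in Saline, with 61.4 CPM in Saline 4. Bhlhe41 (DEC2), an E-box repressor, averaged 37.0 ± 4.81 CPM in TLQP21 and 43.3 ± 7.21 CPM in Saline. Cipc, a CLOCK-interacting repressor, averaged 26.4 ± 1.71 CPM in TLQP21 and 23.9 ± 2.03 CPM in Saline. The groups overlapped for these 4 genes, and each had an unadjusted p above 0.05.

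By pattern over the 8 libraries, described without a test, the genes most like Arntl were not in the clock lists. Among 13717 protein-coding genes with a mean of at least 1 CPM, those with the highest r to Arntl were Senp2 (0.96), Rpn1 (0.95), Nrm (0.94), Pcna (0.94) and Agpat4 (0.92), and those with the lowest were Cybrd1 (-0.94), Mcee (-0.91), Adcy1 (-0.90), Cluap1 (-0.90) and Tprkb (-0.90). Per2 and Per3 ranked 389 and 405 from the lowest end. Bhlhe41 (0.75, rank 154 from the highest) was the 1 gene of the further clock list beyond 0.7 in either direction, where 1.95% of all these genes lay above 0.7 and 1.71% below -0.7. For Dbp the highest were Frs3 (0.97), Vps37d (0.96), Gpt (0.96), Pink1 (0.96) and Isoc2a (0.95) and the lowest Slc20a1 (-0.96), Rad51b (-0.95), Rgs7bp (-0.94), Fam206a (-0.94) and Kdelr2 (-0.94). For Dbp 10.3% of the genes lay above 0.7 and 5.54% below -0.7. The lowest Dbp library was TLQP21 4 and the highest Saline 2.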

How the data were processed

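Read counts per gene in 8 tumour libraries were deposited by the authors as whole numbers, not normalised; gene length in bases was deposited beside them. The submitters' processing notes name GRCm38 (mm10) as build, HISAT2 (2.0.5) and featureCounts (1.5.0-p3) among the tools, and also DESeq2 (1.32.0). Neither the strand setting of the counting nor the annotation release was given in the sources used here. Libraries were made with the NEBNext Ultra RNA kit and sequenced as paired ends of 150 bp, per the labels' protocols. No gene row lacked a name. Library totals were 28358465 to 33536087. The test was that of edgeR (4.0.16, under R 4.3.3): default filter on low counts by group (18238 genes), TMM scaling, quasi-likelihood test of TLQP21 against Saline, Benjamini-Hochberg adjustment over all genes and a threshold of 0.05. Log2 CPM used a prior count of 2. TPM were computed from the scaled counts and the deposited lengths. Correlations were tested exactly over all pairings with scipy 1.17.1. Alternatives were DESeq2 (here 1.42.0) and voom with quality weights per sample (limma 3.58.1), with other scalings, no filter, a replicate block, the sex-linked split as covariate and each library left out. The edgeR step was tested on simulated data. The members and lists were chosen with earlier results of these data known. Genes named were the members, up to 6 network genes of smallest p (1 of them is not reported here), those beyond an r of 0.7 to Arntl, the 5 genes most and least like Arntl and Dbp, and overlapping genes; Tsc22d3, Klf9, Ddit4, Mt2, Dusp1 and Nr4a1 were chosen after their values were seen.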

Additional observations from a re-analysis of the deposited data

Results flagged for a closer look

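In the Saline group Nr1d2 was at 67.7 CPM in Saline 4 and at 87.7 to 90.0 CPM in the other 3 libraries, so that the gap to the nearest library took 0.895 of the whole range, above Dixon's 95% critical value for 4 samples. Of 20 groups of 4 examined (10 genes in 2 groups) this was the 1 library that stood out, and chance gives about 1 in 20.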

How the results depend on the processing

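The counts of members and of further clock genes past the threshold were 0 under every alternative run, each library left out included. Arntl relations past the threshold were 0 as well. For the replicate block that 0 was fixed in advance, because swaps within replicate numbers are too few for any p to reach the threshold. There r with Arntl was -0.95 for Per2, -0.90 for Per3, 0.75 for Per1 and 0.52 for Cry1. Over all genes DESeq2 called 4 and voom 1, and the other settings 0. The log2 fold change of Per1 stayed below 0 in every setting (-0.61 in voom, -1.01 to -0.53 with 1 library left out). In voom the direction turned for Arntl (0.014), Clock (-0.10), Per2 (-0.0098), Per3 (-0.22) and Cry2 (0.020), and with library totals for Cry2 (0.0074). Voom put Nr1d2 at -0.37, against -0.17 in the main fit (adjusted p = 0.388, limma voom). There 1 member and 7 further clock genes had an unadjusted p under 0.05, as had 1932 of all 18238 genes. In the main fit it was 1 member, 1 further clock gene and 558 of all genes. With 1 library left out, the log2 fold change ran from -0.12 to 0.13 for Clock, -0.080 to 0.14 for Per3 and -0.11 to 0.045 for Cry2. The r of Arntl then ran from -0.37 to 0.33 with Clock, -0.47 to 0.25 with Cry2, -0.42 to 0.50 with Nr1d1 and -0.66 to 0.44 with Dbp. Without Saline 2 and Saline 4 it was 0.24 with Cry2, 0.45 with Nr1d1, 0.21 with Nr1d2 and 0.46 with Dbp. With the replicate block 0 members were called, Per1 was at -0.67 and the r of Arntl was 0.15 with Nr1d1 and 0.10 with Dbp. For pairing, each gene's log2 CPM was set relative to the mean of its own treatment group. Over all genes tested, these deviations correlated at -0.05 to 0.27 between same-numbered libraries. Only for number 3 was this above the highest r to another number (0.27 against 0.16). These values do not settle whether the numbers pair the libraries. The count of Per1 relations past the threshold, 4 of 18, was 0 after centring on treatment or kind and without Saline 3 and Saline 4. Without these 2 libraries the arrangements are too few for any single relation to pass alone, and r with Tsc22d3 was 0.91. The count was 0 to 6 with 1 library left out. With the replicate block this count could only be 0, for the same want of arrangements, and the r of Per1 with Tsc22d3 was 0.97 there. The cause of these shifts was not tested. Npas2, with 8 reads in its lowest library, is limited by depth.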
